A study of Mus musculus with 2 samples.

Results

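2610005L07Rik, Gm17279 and AC152164.1 are 3 overlapping noncoding genes on chromosome 8 of the mouse, and 7 of the 1280 HP1β peaks found in E14 embryonic stem cells (ESCs) had their midpoint in the bodies of these genes. The genes were chosen by this number of peaks, so the number itself is a description and carries no test. They are 3 of the 37273 genes that GENCODE vM1 annotates on the chromosomes of the list. HP1β was measured by ChIP-Seq with 1 library made with the HP1β antibody Euromedex 1MOD-1A9-AS and 1 input library made without antibody. Both came from ESCs of the 129P2/Ola strain, which were grown in PowerStem EsPro1 medium with LIF on gelatine. The general culture methods of the paper differ, since they list E14 among ESCs kept on gelatin and feeder fibroblasts in DMEM with serum and LIF. With 1 library of each kind there is no replicate, the list gives no read numbers, and the depth behind each peak is therefore unknown.

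HP1β, encoded by Cbx1, is a chromodomain protein that binds methylated lysine 9 of histone H3, the mark of heterochromatin, and that dimerises through its chromoshadow domain. Long noncoding RNA genes are transcribed and spliced but code for no known protein. Segmental duplications are long stretches of nearly identical sequence, and a short read from such a stretch can match several places of a genome. The functions of 2610005L07Rik, Gm17279 and AC152164.1 are not described by the annotation.

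The 7 peaks are numbered here from left to right on the mm9 assembly. The sequences of peaks 1, 3, 4 and 7 are shown first, since the results turn on how closely each resembles other parts of the genome. Each peak is followed by a copy of it on chromosome 8, turned to the same direction, and capitals mark the bases that differ between the peak and the copy or that only one of them has. In peak 7 the capitals mark the repeat unit that the copies shown lack.
Peak 1, chr8:19937500-19937642, plus strand: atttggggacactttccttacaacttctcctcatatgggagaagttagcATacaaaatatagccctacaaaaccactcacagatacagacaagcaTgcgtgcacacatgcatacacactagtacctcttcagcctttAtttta
Copy of peak 1, chr8:71956140-71956282, plus strand: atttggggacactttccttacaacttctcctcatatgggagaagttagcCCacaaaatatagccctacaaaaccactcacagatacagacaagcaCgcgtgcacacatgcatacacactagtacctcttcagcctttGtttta
Peak 3, chr8:19939479-19939737, plus strand: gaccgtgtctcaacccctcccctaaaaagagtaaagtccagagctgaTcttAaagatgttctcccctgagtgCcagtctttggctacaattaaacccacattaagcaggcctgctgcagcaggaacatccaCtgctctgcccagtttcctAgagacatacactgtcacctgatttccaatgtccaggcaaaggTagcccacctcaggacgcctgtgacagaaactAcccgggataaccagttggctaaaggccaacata
Copy of peak 3, chr8:19747034-19747292, minus strand: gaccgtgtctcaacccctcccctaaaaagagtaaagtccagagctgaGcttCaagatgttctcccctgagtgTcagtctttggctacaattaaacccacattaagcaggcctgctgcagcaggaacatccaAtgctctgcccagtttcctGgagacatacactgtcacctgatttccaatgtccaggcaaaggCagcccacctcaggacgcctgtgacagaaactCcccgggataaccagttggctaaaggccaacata
Peak 4, chr8:19940684-19940824, plus strand: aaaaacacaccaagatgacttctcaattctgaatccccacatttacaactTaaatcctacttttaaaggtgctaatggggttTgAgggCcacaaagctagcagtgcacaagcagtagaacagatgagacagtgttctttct
Copy of peak 4, chr8:19745948-19746089, minus strand: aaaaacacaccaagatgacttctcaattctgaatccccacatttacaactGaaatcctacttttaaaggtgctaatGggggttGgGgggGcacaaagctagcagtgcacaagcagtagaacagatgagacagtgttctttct
Peak 7, chr8:20015631-20015706, plus strand: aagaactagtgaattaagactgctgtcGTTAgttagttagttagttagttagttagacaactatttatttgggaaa
Copy of peak 7, chr8:19789311-19789382, minus strand: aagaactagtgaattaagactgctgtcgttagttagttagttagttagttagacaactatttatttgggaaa
Other copy of peak 7, chr8:19888349-19888420, plus strand: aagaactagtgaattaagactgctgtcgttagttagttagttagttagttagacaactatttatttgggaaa
Peak 1 and its copy differed at 4 of 143 bases, and peak 3 and its copy differed at 7 of 259 bases. Peak 4 and its copy differed at 4 bases, and the copy had 1 more base than the 141 of the peak. The copies shown for peaks 1, 3 and 4 are not their closest. Their closest copies, with 98.6%, 99.6% and 99.3% identity, lie on sequences of the assembly that are not placed on a chromosome. The copies shown have 97.2%, 97.3% and 96.5%. None of the copies shown held a peak of the list.

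The gene 2610005L07Rik (ENSMUSG00000071793.5) lies on the minus strand at chr8:19863337-20020413. Its body of 157.1 kb spans 4 annotated transcripts and held all 7 peaks. Gm17279 (ENSMUSG00000091588.1), a long intergenic noncoding RNA gene on the plus strand at chr8:19888055-20016359, also held 7 peaks in 128.3 kb. AC152164.1 (ENSMUSG00000078694.2), of the same class but on the minus strand at chr8:19883287-20011364, held 6 peaks in 128.1 kb, since peak 7 lay beyond its right end. The 3 counts are not independent, because the bodies overlap and share the same peaks. Over all annotated genes, 7 of 37273 (0.0188%) held 5 or more peaks, namely these 3, Gm15319, Erc1, Gm13242 and Sox5. Gm15319 lies inside the 3 bodies, so 4 of the 7 genes share peaks.

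Peak 1 lay at chr8:19937500-19937642, was 143 bp wide and had a score of 41.75. The score is the one deposited with the list, which equals −log10 of the MACS p-value multiplied by 10, and the cutoff of 0.001 for that p-value sets its lowest possible value at 30. Peak 2, at chr8:19938471-19938861, was the widest of the 7 with 391 bp and had a score of 33.24. Peak 3 lay at chr8:19939479-19939737, with a width of 259 bp and a score of 35.25. These neighbours of peak 1 therefore had lower scores over wider intervals.

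Peak 4, at chr8:19940684-19940824, was 141 bp wide and had the lowest score of the 7, 30.65. Peak 5 lay at chr8:19958588-19958681, was 94 bp wide and had a score of 34.64. Peak 6 lay at chr8:19971352-19971505, with a width of 154 bp and a score of 32.24. Peak 7, at chr8:20015631-20015706, was the narrowest with 76 bp and had the highest score, 42.05. High and low scores thus alternated along the genes, and the widest peak was not the one with the highest score.

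By score, the 7 peaks were spread from the upper to the lower part of the list. Peak 7 had 117 peaks above it by score, peak 1 had 122, and peak 4 had 1059. The median score of the 7 was 34.6, with a range of 30.6 to 42.0, and the median of the whole list was 33.2. A score of 40 or more was reached by 2 of the 7 peaks, and by 13.6% of all peaks. The peaks were narrower at the median, 143 bp against 250 bp over the list, and only 0.234% of the list was narrower than peak 7. Their median GC content was 40.6%, against 47.4% over all peaks, with peak 7 lowest at 30.3% and peak 3 highest at 50.2%.

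**Figure D1:**
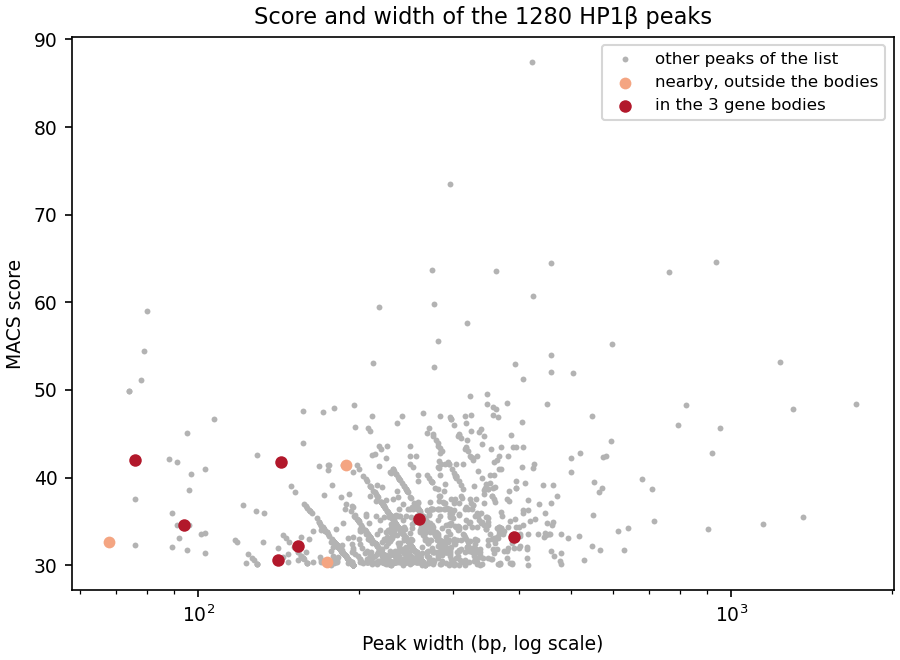
Width of each of the 1280 HP1β peaks (bp, log scale) against its MACS score. Dark red points are the 7 peaks in the bodies of 2610005L07Rik, Gm17279 and AC152164.1, light red points are 3 nearby peaks outside them, and grey points are the other peaks. The 7 peaks lie between scores of 30.6 and 42.0, and the list reaches 87.43.

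Peaks 1 to 4 formed a close run within 3325 bp, and peaks 5 to 7 were farther apart. The midpoints of neighbouring peaks were 1095 bp, 942 bp and 1146 bp apart in the run. Peak 5 followed peak 4 after 17881 bp, peak 6 followed peak 5 after 12794 bp and peak 7 followed peak 6 after 44240 bp. The median of these 6 distances was 6970 bp. Over the whole list the median distance between neighbouring peaks was 714 kb, and 12 of 1259 neighbouring distances (0.953%) were under 1200 bp, 3 of them in this run. From the first to the fourth midpoint the run measured 3183 bp, and none of the other runs of 4 neighbouring peaks, 1217 in all with this one, was as close. The median run of 4 peaks in the list measured 3.8 Mb. In the body of 2610005L07Rik, 157.1 kb long, the 7 peaks lay from 74.2 kb to 152.3 kb from its left end. Peaks 1 to 4 were near its middle, and the stretch to the left of peak 1 held none.

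None of the 7 peaks lay in an exon of the 3 genes, and none touched one by a single base. Exons cover 5.51% of 2610005L07Rik, 0.793% of Gm17279 and 0.625% of AC152164.1, so that a position in these bodies is seldom exonic. Peak 7 was nearest to an exon, 326 bp to the left of the exon of 2610005L07Rik at chr8:20016032-20019763, where the second exon of Gm17279 begins as well. Peak 6 was 9.86 kb and peak 5 was 22.7 kb from the exon at chr8:19981360-19983980. Peaks 1 to 4 were 40.5 kb to 43.7 kb away from the same exon.

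A further gene, the protein-coding Gm15319 (ENSMUSG00000074449.3), lies within the 3 bodies on the minus strand at chr8:19933242-19958788 and held 5 of the 7 peaks. Its density, 196 peaks per Mb over 25.55 kb, was above the 44.6 to 54.6 peaks per Mb of the 3 noncoding genes around it. Peaks 1 and 2 lay in the seventh intron of Gm15319, which is 1618 bp long. Peaks 3 and 4 lay in its sixth intron, which is 12716 bp long. Peak 5 lay in the first of its 10 exons, at chr8:19958354-19958788, and began 107 bp downstream of the annotated start of the gene, with its midpoint in the 5′ untranslated part. Peak 5 was thus the only one of the 7 in an annotated exon, and that exon belongs to none of the 3 noncoding genes.

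**Figure D2:**
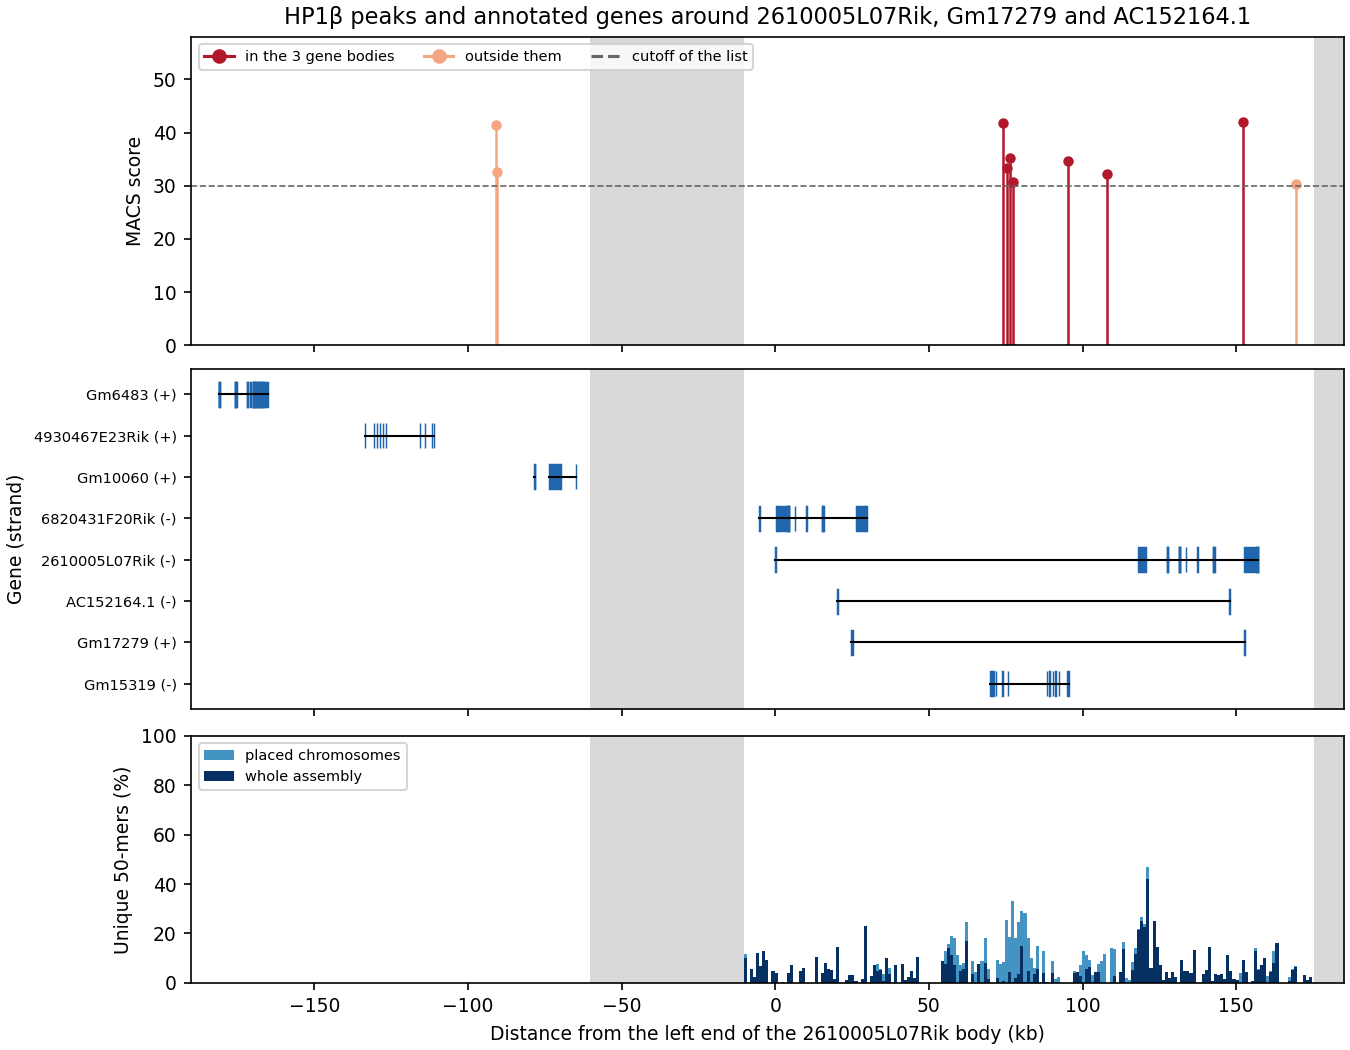
Scores of the HP1β peaks (top), annotated genes with their exons as blue boxes and their strand in brackets (middle), and the percent of positions per 1 kb window that start a unique 50-mer (bottom, drawn between the assembly gaps), all against the distance in kb from the left end of 2610005L07Rik. Grey areas are assembly gaps, the second one cut off at the right, and the dashed line is the cutoff at a score of 30. Peaks 1 to 4 stand together at 74.2 to 77.4 kb, within the long introns of all 3 noncoding genes.

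The bodies of the 3 genes rest on 1 very long intron each. Gm17279 and AC152164.1 are each annotated by 1 transcript of 2 exons, with an intron of 127288 bp in Gm17279 and of 127277 bp in AC152164.1. In 2610005L07Rik only the transcript ENSMUST00000167037.1 reaches the left end, through an intron of 127301 bp. The intron of Gm17279 held 7 peaks, and those of AC152164.1 and of this transcript held 6 each. The longest other transcript of 2610005L07Rik, ENSMUST00000140111.1, measures 39.0 kb and held peak 7 alone. Without the transcripts that have an intron over 100 kb, 1 of the 7 peaks would be counted in these genes.

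The lengths of the 3 introns were close to the distance between repeated copies of the sequence around their ends. The sequence at the left end of the intron of Gm17279 recurred 127277 bp to the right with 99.4% identity, and the copy of the base after the left exon fell 11 bp from the start of the right exon. For AC152164.1 the repeat distance was 127285 bp with 99.6% identity, and the copy fell 8 bp past the start of the right exon, written as -8 bp. For the transcript of 2610005L07Rik the distance was 127283 bp with 99.2% identity, and the copy fell 18 bp from the right exon. In the 3 genes, therefore, the exon on the right begins at nearly the same place within a copy as the intron on the left. Exons of 2610005L07Rik also matched exons of the gene 6820431F20Rik, a noncoding gene at chr8:19858191-19893124 that overlaps its left end and held no peak. An exon of 120 bp matched without a difference at a distance of 127254 bp, and an exon of 299 bp matched with 99.7% identity at 127249 bp. The part of these repeats in the long introns was not tested, since transcripts were not measured in these libraries.

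The duplications extended over nearly the whole region. Blocks of 5 kb or more that recur nearby on chromosome 8, before or after the first assembly gap, covered 98.5% of the body of 2610005L07Rik. The largest, chr8:19904988-20010115 with 105.0 kb, holds peaks 1 to 6 and recurs in inverted orientation at chr8:19678444-19771993 with 98.4% identity. A pair of blocks in the same orientation, 18.9 kb at 98.5% and 30.9 kb at 99.2% identity, joins the left and the right end of the gene, and the longer one, chr8:19999285-20030166, holds peak 7. An inverted block at chr8:20006571-20037947, 31.4 kb with 98.7% identity, holds peak 7 too.

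**Figure D3:**
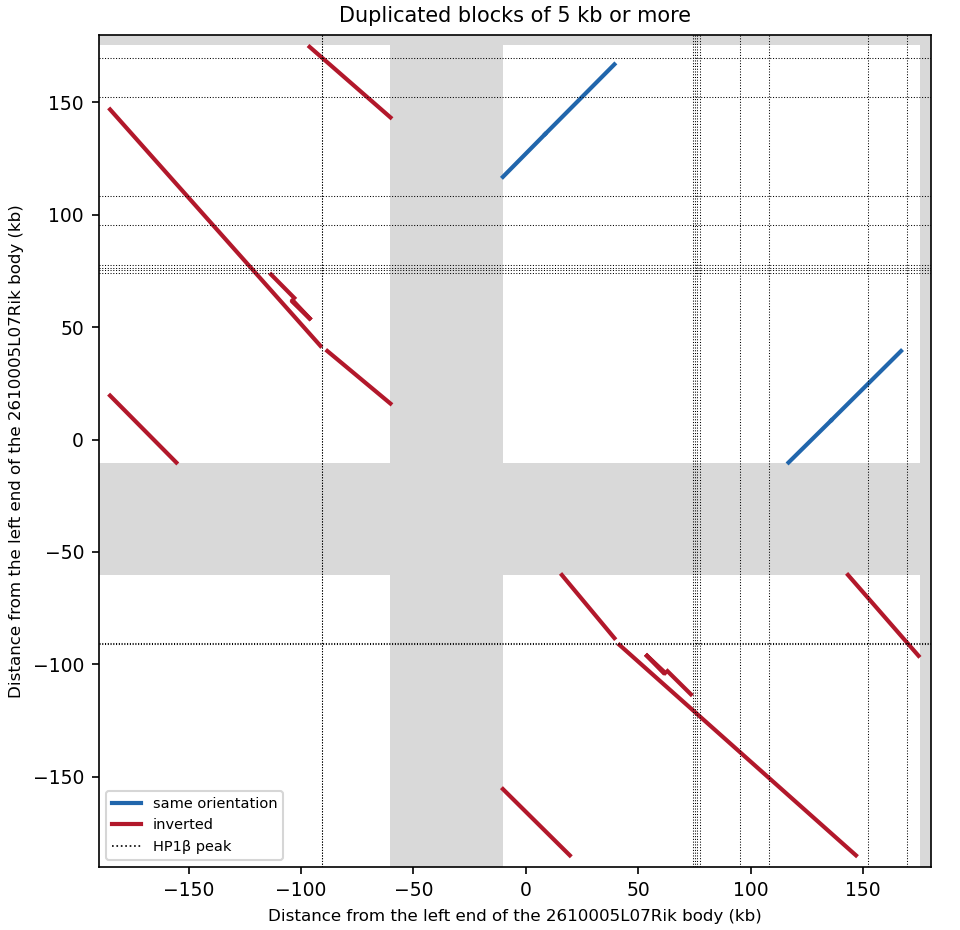
Duplicated blocks of at least 5 kb around the 3 genes, with the distance in kb from the left end of 2610005L07Rik on both axes. Blue lines are blocks in the same orientation, red lines are inverted blocks, dotted lines mark HP1β peaks and grey bands are assembly gaps. The long inverted block of 105.0 kb crosses the lines of peaks 1 to 6.

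More distant copies covered much of the body as well. A second region of chromosome 8, at chr8:71941491-72118547, covered 89.6% of it with blocks of 96.7% to 97.6% identity. Sequences of the assembly that are not placed on a chromosome covered 60.6%, at up to 99.4% identity. Shorter blocks at chr8:105189522-105214497 matched with 93.8% identity.

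All 7 peaks had a near-identical copy elsewhere in the assembly, here a match of at least 90% identity over at least 80% of the peak, against 8.2% of all peaks. The copies of 6 peaks lay only on chromosome 8 or on unplaced sequences. Peaks 1, 3 and 4 had 4 copies each on chromosome 8 and 2 each on unplaced sequences. Peak 2 had 7 on chromosome 8, and peak 5 had 5. Peak 7 had 2 on chromosome 8, both nearby. The copies of peaks 1 to 4 in the inverted block lay in introns of 4930467E23Rik, a protein-coding gene of 10 exons at chr8:19729746-19752236 that held no peak.

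Peak 6 differed from the others in its number of copies, 301 in all, of which 288 lay on other chromosomes and 11 on chromosome 8. Its best copy, on an unplaced sequence, had 99.4% identity, and its best placed copy had 98.1%. None of the 37 copies of the 7 peaks on chromosome 8 held a listed peak. The second region held copies of 6 of the peaks but no listed peak, whereas 4 listed peaks lay within 10.5 kb outside its ends. The nearest of these 4, chr8:71938937-71939213, had a score of 52.7, higher than each of the 7. Reads with several matches were left out by the authors. Which bases of the copies could be read uniquely was not tested, so the lack of a listed peak there does not measure HP1β.

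Peak 7 was built around a short tandem repeat. It holds the unit gtta 7 times in a row, 28 of its 76 bases. Both of its copies on chromosome 8, of 72 bases each, hold the unit 6 times, and these sequences were otherwise identical to the peak. Its other 2 copies, on unplaced sequences, had a lower identity than the 94.7% of these. No other peak of the list had 5 or more of these units in a row. One of the copies on chromosome 8, chr8:19888349-19888420, lies in the first exon of Gm17279, 127282 bp to the left of peak 7.

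Few 50-mers of the 3 genes were unique to them. A 50-mer, a stretch as long as the 50-base reads of the libraries, was called unique when it had no match elsewhere on either strand with up to 1 mismatch, the limit the authors used for alignments. Of all positions in the 3 bodies, 4.42% started a unique 50-mer when the unplaced sequences were searched too, and 7.12% did on the placed chromosomes alone. The values were 96.0% in Sox5 and 94.5% in Erc1 in both searches. Sox5, a transcription factor gene, held 10 peaks and Erc1, which encodes a scaffold protein of the presynaptic active zone, held 6, and no peak in either gene had a copy or lacked unique 50-mers.

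Within the 7 peaks, 2.46% of positions started a unique 50-mer in the whole assembly and 32.6% did on the placed chromosomes, against 93.8% and 96.8% over all peaks. Whether the index used for alignment held the unplaced sequences is not given in the sources used here. Peak 7 had the highest share in the whole assembly, 30.3%, and kept this share on the placed chromosomes. Peak 1 had 5.59% and 49.0%. Peaks 2, 3 and 4 had 0.0% in the whole assembly and 41.4%, 39.4% and 37.6% on the placed chromosomes. The 4 close peaks thus gained most when the unplaced sequences were left out.

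Peaks 5 and 6 were listed although they had no unique 50-mer in either search. Unique 50-mers as counted here thus do not mark every place where a peak could be called. In the whole assembly 5 of the 7 peaks had none, against 1.88% of all peaks, and on the placed chromosomes 2 of the 7 had none, against 0.938%. With exact matches alone counted as copies, 53.2% of 50-mers in peak 5 and 39.0% in peak 6 were unique on the placed chromosomes. The 50-mers up to 200 bp on either side, added to those of the 7 peaks, gave a share of 2.83% in the whole assembly. The assembly represents the C57BL/6J strain, and differences of the 129P2/Ola genome at these copies were not measured here.

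**Figure D4:**
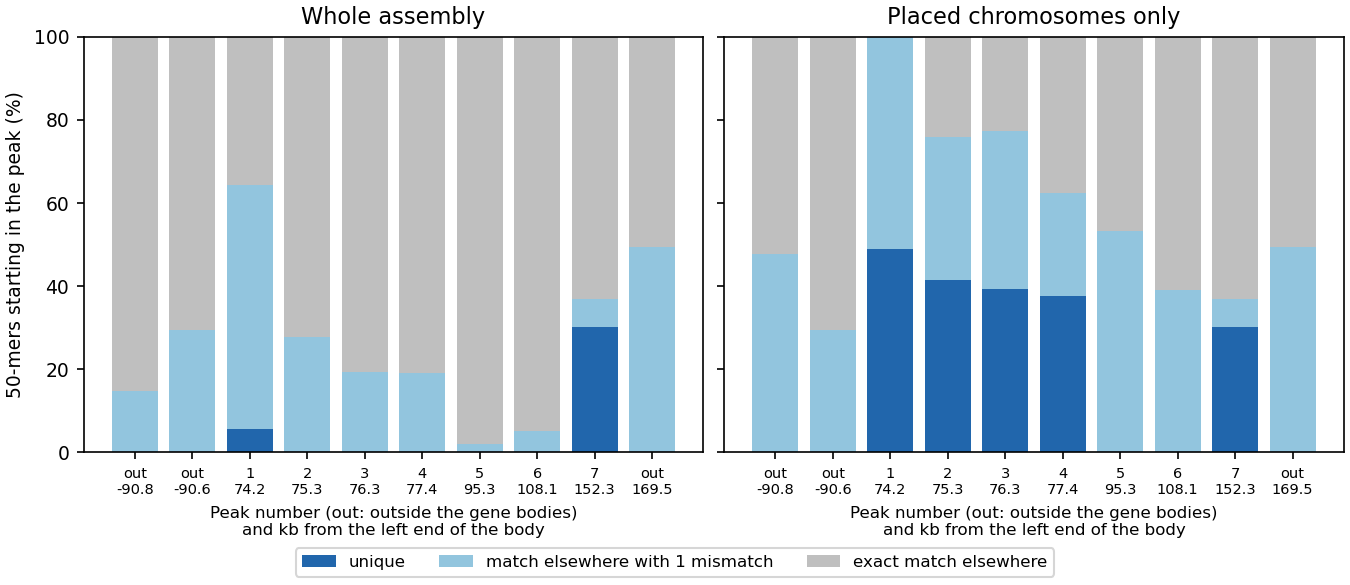
Share of 50-mers starting in each peak (percent) that were unique (dark blue), matched elsewhere with 1 mismatch (light blue) or matched elsewhere exactly (grey), in the whole assembly (left) and on the placed chromosomes alone (right). Peaks 1 to 4 gain unique 50-mers in the right panel, to between 37.6% and 49.0%, and peak 7 stays at 30.3%.

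The 4 close peaks lay in a stretch with more unique positions on the placed chromosomes than the median window of the bodies. Of the 157 windows of 1 kb in the bodies, 6 had at least 25% unique positions on the placed chromosomes, and these 6 held 2 of the 7 peaks. The window with the highest share, 47.1%, held no peak, and the window of peak 1 had 8.6%. The median window had 4.6%, and 35 windows had none. Between the first base of peak 1 and the last base of peak 4, 23.3% of positions started a unique 50-mer there, and inside the 4 peaks 41.4% did. In the whole assembly the order was reversed. The span then had 1.53% and the 4 peaks 0.857%, below the 4.42% of the bodies. Peaks 5 to 7 together had 7.1% in both searches, all of it in peak 7. The part of this unevenness in the positions of the peaks was not tested.

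**Figure D5:**
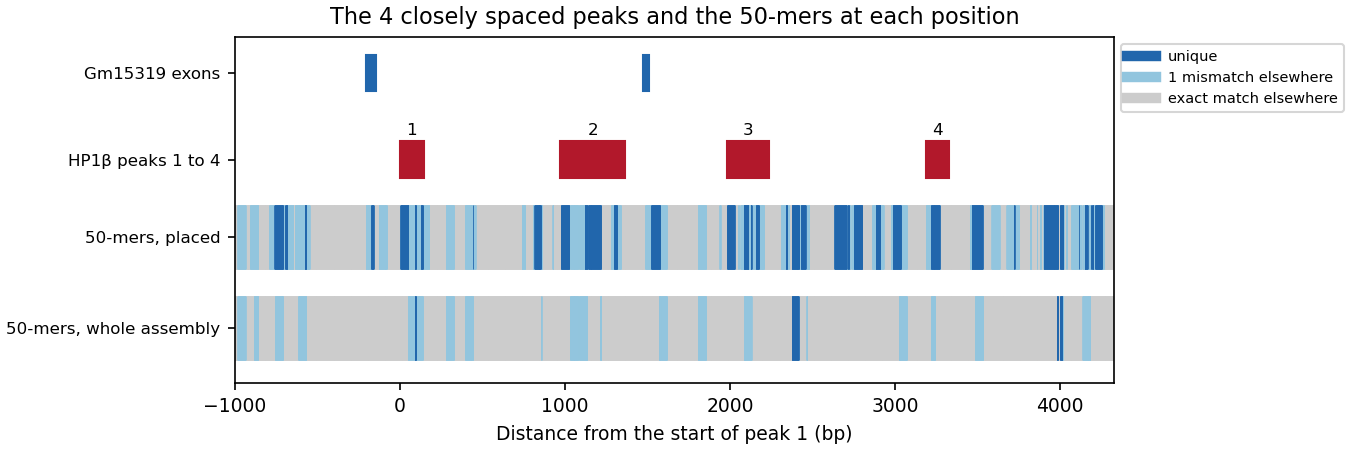
Exons of Gm15319, peaks 1 to 4 and the class of the 50-mer that starts at each position, against the distance in bp from the start of peak 1. Dark blue is unique, light blue matches elsewhere with 1 mismatch and grey matches elsewhere exactly, in the whole assembly and on the placed chromosomes. Under the 4 peaks, 41.4% of the positions are unique in the lane of the placed chromosomes and 0.857% in that of the whole assembly.

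Outside the 3 bodies, 3 more peaks lay close by. On the right, where the body of 2610005L07Rik ends 4.75 kb beyond the midpoint of peak 7, the first peak outside had its midpoint 12.4 kb past the end, at chr8:20032708-20032881, with 174 bp and a score of 30.37. On the left, 90.6 kb before the body, 2 peaks lay 58 bp apart, at chr8:19772419-19772607 with a score of 41.46 and at chr8:19772666-19772733 with a score of 32.65. All 3 had copies elsewhere and none had a unique 50-mer in either search. Together with the 7 peaks they made up 10 of the 105 peaks with a copy in the list, and 5 of the 12 peaks without any 50-mer unique on the placed chromosomes.

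The peak on the right and the first one on the left were partly the same sequence in opposite orientation. The inverted copy of the left peak lies at chr8:20032595-20032783, has 98.9% identity and overlaps the right peak by 76 bp, which is 40.2% of the left peak and 43.7% of the right one. The shared bases are printed in the direction of the right peak, with the base that differs in capitals.
Right peak, chr8:20032708-20032783, plus strand: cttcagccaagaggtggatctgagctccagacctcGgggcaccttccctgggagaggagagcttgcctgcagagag
Left peak, chr8:19772419-19772494, minus strand: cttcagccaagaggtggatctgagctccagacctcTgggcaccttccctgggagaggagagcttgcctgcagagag
These 76 bases differed at 1 position, and both places were called as peaks. The 7 peaks in the gene bodies had no such partner.

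The group of 10 peaks stood apart on the chromosome. It spanned 260 kb, with the previous listed peak 15.3 Mb to the left and the next one 6.34 Mb to the right. The 7 peaks were 12.7% of the 55 peaks on chromosome 8, and the 10 were 18.2%. The density was 44.6 peaks per Mb in the 3 bodies, 2.11 in the 1 Mb to the left of them, 0.441 over chromosome 8 and 0.5 over all chromosomes, each per Mb of sequence without gaps. Sox5 had 10.5 and Erc1 had 21.6 peaks per Mb. An assembly gap of 50000 bases ends 10.2 kb before the left end of 2610005L07Rik, and a gap of 2.0 Mb begins 18.3 kb after its right end.

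The other annotated genes within 250 kb held no peak. They were 6820431F20Rik, which overlaps the left end of 2610005L07Rik, the protein-coding Gm6483 at chr8:19682268-19698275, 4930467E23Rik, and a pseudogene and a long intergenic noncoding RNA gene that are both named Gm10060. Peaks of the list thus lay in Gm15319 and in the introns of the 3 noncoding genes around it, but in none of the 4930467E23Rik introns that hold copies of peaks 1 to 4. These copies had 96.5% to 97.3% identity with the peaks. Whether reads from the peaks and from these copies could be told apart was not tested.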

How the data were processed

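HP1β ChIP and input DNA of E14 ESCs (129P2/Ola) were sequenced with 1 library each. The authors mapped single reads of 50 bases to mm9 (Bowtie, 1 mismatch allowed, reads with several matches dropped). Peak calling was done by the authors with MACS 1.4, with 0.001 as the largest p-value and a fold range from 8 to 30 for its model. The deposited list has 1280 peaks, and its score, as deposited, is −log10 of the p-value multiplied by 10. Depth per library is not given in the list, so no precision can be derived from it.

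The genes and measures were chosen with earlier results of these data known. Peaks were assigned to GENCODE vM1 gene bodies by their midpoint, and coordinates count from 1. Copies were sought with megablast (BLAST 2.17.0, word size 20, expect limit 1e-05, at least 90% identity over 80% of the peak). Duplicated blocks of at least 5 kb came from minimap2 2.31. The search for 50-mers, as long as the reads, (Python 3.11.15, numba 0.67.0) was tested on simulated sequences. No test was made between groups, since there was 1 library of each kind. The sequences of peaks 2, 5 and 6 are not shown. Alternatives were score, overlap, merging, identity and mismatch limits, with 6 of them added after the data were seen.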

Additional observations from a re-analysis of the deposited data

How the results depend on the processing

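Of 23 alternatives for 8 results, 17 planned and 6 added after the data were seen, 12 left the value unchanged within a factor of 1.5 or within the spread of the peaks. The 7 peaks became 2 at a score of 40 or more, 4 when peaks less than 1 kb apart counted once, and 1 without transcripts that have an intron over 100 kb. The median distance became 78098 bp at a score of 40 or more. The median score per kb of width was 217. The density of 44.6 per Mb became 12.7 at a score of 40 or more, 1010 per Mb of unique 50-mers and 626 per Mb of 50-mers unique on the placed chromosomes. The densities of 1010 and 626 count all 7 peaks. Of these, 5 had no unique 50-mer in the whole assembly and 2 had none on the placed chromosomes. The share of unique 50-mers of 2.46% became 25.1% with exact matches alone, 32.6% on the placed chromosomes and 68.8% with both. No paired analysis was possible because there is 1 ChIP library. The numbers of reads, the copy number in these cells and reads that match several places were not analysed here.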
